A study of Homo sapiens with 6 samples.

Results

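The genes HSPA5, HSP90B1, DNAJB9, DNAJC3, SDF2L1, CALR, PDIA4, PDIA6, HERPUD1 and XBP1 encode folding factors of the endoplasmic reticulum, a component of its degradation machinery and a transcription factor of the unfolded protein response. They were taken by exact name from a table of 26906 rows, and all 10 had a row of their own. The cells were BE-(2)-C, an established human neuroblastoma line, sampled 48 hours after treatment with either control siRNA or siRNA against ELF4, a transcription factor of the ETS family. PolyA-selected RNA gave 3 libraries per group, and both groups were the same line in the same serum-containing medium, so they differed by label only in the siRNA. The line stands for a single tumour, and the labels give neither the sequence nor the number of the siRNAs against ELF4. Values are normalised read counts, that is, reads per gene divided by a size factor of the library, given for replicates 1, 2 and 3 in that order and as mean ± SD with n = 3.

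Proteins that enter the secretory pathway fold in the endoplasmic reticulum, where chaperones bind them and disulfide isomerases join their cysteines. When unfolded protein accumulates, the membrane sensors IRE1 (gene ERN1), PERK (gene EIF2AK3) and ATF6 start the unfolded protein response. IRE1 cuts the XBP1 mRNA so that an active transcription factor is made, ATF6 is cleaved to a factor that acts on chaperone promoters, and PERK slows translation while ATF4 and its targets are made. Neuroblastoma cells resemble sympathetic neurons and chromaffin cells, which package large amounts of protein into secretory granules.

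The promoters of these genes are known for the endoplasmic reticulum stress element, in which a CCAAT box and a CCACG box stand a fixed distance apart. Because this element is the sequence that the family is known to share, its copies are shown first, from RefSeq promoters on GRCh38.p14 that run from 250 bases before to 50 bases after each annotated start. The element was searched on both strands as CCAAT, any 9 bases and CCACG (ERSE), and its short form as ATTGG, any 1 base and CCACG (ERSE-II). All 10 genes matched the promoter table, with 13 starts. Capitals mark the element, and every sequence is written along the strand of the gene.
HSPA5, ERSE, chr9:125241371-125241430, minus strand: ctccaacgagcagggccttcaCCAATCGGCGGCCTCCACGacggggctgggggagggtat
HSP90B1, ERSE, chr12:103930195-103930254, plus strand: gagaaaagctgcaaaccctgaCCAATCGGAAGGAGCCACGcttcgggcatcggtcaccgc
HSP90B1, ERSE, chr12:103930300-103930359, plus strand: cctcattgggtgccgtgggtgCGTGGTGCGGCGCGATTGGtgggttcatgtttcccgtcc
CALR, ERSE, chr19:12938363-12938422, plus strand: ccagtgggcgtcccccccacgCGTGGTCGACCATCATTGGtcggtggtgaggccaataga
PDIA6, ERSE, chr2:10812833-10812892, minus strand: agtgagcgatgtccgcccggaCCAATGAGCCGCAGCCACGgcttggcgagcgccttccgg
XBP1, ERSE, chr22:28800583-28800642, minus strand: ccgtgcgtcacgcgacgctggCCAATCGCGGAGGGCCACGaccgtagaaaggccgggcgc
HERPUD1, ERSE-II, chr16:56932000-56932059, plus strand: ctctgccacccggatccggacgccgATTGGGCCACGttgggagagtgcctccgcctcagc
SDF2L1, ERSE-II, chr22:21642089-21642148, plus strand: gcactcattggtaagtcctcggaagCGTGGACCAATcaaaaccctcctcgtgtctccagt

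ERSE was found in 5 of the 10 genes, HSPA5, HSP90B1, CALR, PDIA6 and XBP1, and ERSE-II in HERPUD1 and SDF2L1. HSP90B1 had 2 copies in opposite orientation. Across all 35116 promoters of the table, 0.0769% held ERSE and 0.0541% held ERSE-II, and no promoter element of one kind overlapped the other in these genes. The last base of the element lay 34 bases before the start in XBP1, 48 in HSPA5 and 68 in PDIA6, and 207 bases before it in CALR. The promoters of DNAJB9, DNAJC3 and PDIA4 held neither string, and the sequence TGACGTGG, a form of the unfolded protein response element, was in none of the 10 genes and in 0.729% of all promoters. A match is a string of letters and was not tested for binding.

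After ELF4 siRNA these genes did not move together. HERPUD1, CALR and HSP90B1 rose, PDIA6 and DNAJC3 fell, and HSPA5, DNAJB9, SDF2L1, PDIA4 and XBP1 did not pass the test. The test was limma on log2(value + 1) across the 20339 genes that reached a normalised read count of 10 in 3 or more libraries, two-sided, with a Benjamini-Hochberg adjusted p threshold of 0.05. All 10 genes passed the filter on low values. Of all genes tested, 45.1% were called, 20.7% upward and 24.4% downward, so that 5 calls among 10 genes is near the background share. Limma on only the 13056 genes with a mean of at least 100, which all 10 genes reach, called 3353 upward and 4424 downward. That share is larger than 45.1%, so the 45.1% printed beside the lists below is a low reference for genes at such levels. Among the genes with the same element, CALR and HSP90B1 rose, PDIA6 fell and HSPA5 and XBP1 did not pass. Control and ELF4 siRNA libraries were fully separated for the 5 called genes and overlapped for the other 5, and they were separated for 53.6% of all genes tested. The median log2 fold change of the 10 genes was -0.0080, and that of all genes tested was -0.0042.

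**Figure D1:**
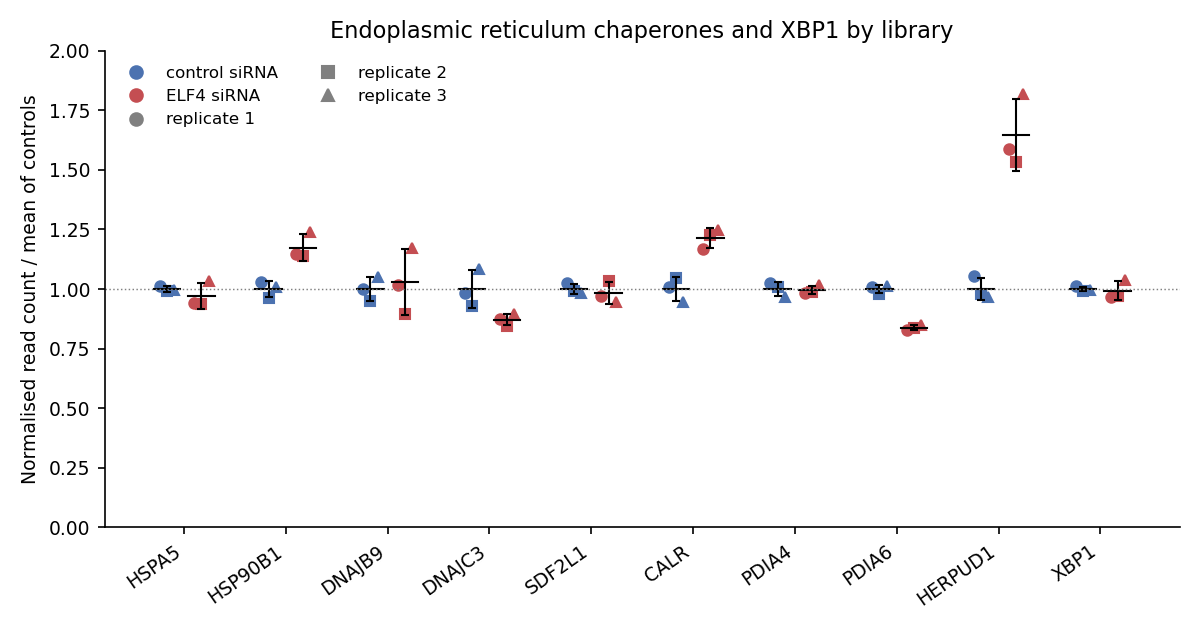
Normalised read count of each gene in each library, divided by the mean of the 3 control libraries (y axis, ratio), with control siRNA in blue, ELF4 siRNA in red, a marker shape per replicate number, and black bars for mean ± SD of 3 libraries. HERPUD1 stands highest above the controls, CALR and HSP90B1 lie above them, PDIA6 and DNAJC3 lie below them, and the other 5 genes overlap with their controls.

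As a check of the siRNA, the mean normalised read count of ELF4 went from 42.7 ± 3.96 to 4.74 ± 1.42, on 34 to 66 reads per control library and 3 to 5 reads per ELF4 siRNA library. The depth was 23148635 to 38097986 reads per library, and the 10 genes had 513 to 40590 reads per library. All 10 of the sympathetic neuroblastoma markers checked had a mean of at least 100, but they were not stable. On the log2 scale CHGA (0.55), HAND2 (0.44) and GATA2 (0.16) rose. DBH (-0.17), ISL1 (-0.16) and MYCN (-0.14) fell, and the others did not pass. Their summed level was 218526 to 233102 in the controls and 244857 to 268119 after ELF4 siRNA. Of the epithelial markers KRT19 rose (0.50), KRT8 fell (-0.81), and the others did not pass or were too low to test. Plasma cells are known for a large endoplasmic reticulum, and of their 4 markers only SDC1, which other cells also express, had a row of its own. SDC1 fell from 1004 ± 19.2 to 792 ± 68.5 (-0.35 on the log2 scale). The summed level of the 6 fibroblast markers was 3839 to 3909 in the controls and 3829 to 4137 after ELF4 siRNA, but 5 of the 6 were called, with rises in COL3A1 (1.75), DCN (0.83), COL1A1 (0.48) and LUM (0.31) and a fall in PDGFRB (-1.19) on the log2 scale. Of 5 blood markers 2 had a row of their own, with a sum of at most 53.7 in all 6 libraries, and PTPRC rose (1.06) while CD14 fell (-1.24). The part of such markers in the results was not tested. The labels do not say whether the replicates were separate cultures, so the p-values cover the spread among these libraries only, which may be technical. In bulk RNA, fewer cells of a kind and less RNA per cell cannot be told apart.

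Among the major chaperones, HSPA5 encodes BiP, the Hsp70 chaperone of the endoplasmic reticulum that also restrains the stress sensors. Its normalised read count was 22979, 22475 and 22585 in the control libraries and 21312, 21266 and 23459.5 in the ELF4 siRNA libraries. Replicate 3 of the ELF4 siRNA group lay above all controls and the other 2 lay below them, so the groups overlapped. Its mean moved from 22679 ± 265 to 22013 ± 1253, which is -0.045 on the log2 scale (SE 0.042, limma adjusted p = 0.424), with a 95% interval of -0.14 to 0.046. Without ELF4 siRNA replicate 3 the log2 fold change was -0.091 (limma adjusted p = 0.0555), the widest shift of HSPA5 among the left-out libraries.

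HSP90B1 encodes GRP94, the Hsp90 chaperone of the same compartment. HSP90B1 had a normalised read count of 29423, 27457 and 28753 in the controls and 32690.3, 32475 and 35339.9 after ELF4 siRNA. All 3 ELF4 siRNA libraries lay above all 3 controls. The mean rose from 28545 ± 999 to 33502 ± 1596, a log2 change of 0.23 (SE 0.043, limma adjusted p = 0.000533). A separate row joins HSP90B1 with MIR3652, for reads that the counting could not assign to 1 of them, and holds 138 ± 12.4 in the controls and 136 ± 39.1 after ELF4 siRNA.

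CALR encodes calreticulin, a calcium-binding lectin that holds glycoproteins while they fold. It had 18975, 19635 and 17793 normalised reads in the controls and 21994, 23039 and 23459.5 after ELF4 siRNA, without overlap. The mean rose from 18801 ± 933 to 22831 ± 755, a log2 change of 0.28 (SE 0.043, limma adjusted p = 0.000113). HSPA5 and CALR had the same number of reads, 22667 each, in ELF4 siRNA replicate 3 and different numbers in the other 5 libraries. The ratio of CALR to HSPA5 within a library was 0.826, 0.874 and 0.788 in the controls and 1.03, 1.08 and 1.00 after ELF4 siRNA. The ratio of HSPA5 to HSP90B1 was 0.781, 0.819 and 0.785 in the controls and 0.652, 0.655 and 0.664 after ELF4 siRNA. Both ratios separated the groups, which shows that these chaperones changed unequally within the same libraries. Neither ratio was corrected for transcript length, so they do not give the order of the levels of these genes.

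The cofactors of BiP were at lower levels. DNAJC3 encodes p58IPK, a J-domain cochaperone of BiP that is also known as an inhibitor of PERK. Its normalised read count was 1588, 1499.9 and 1752 in the controls and 1413, 1364 and 1442 after ELF4 siRNA, without overlap. The mean fell from 1613 ± 128 to 1406 ± 39.4, a log2 change of -0.20 (SE 0.057, limma adjusted p = 0.012). This call was lost without control replicate 3, the highest control, where the log2 fold change was -0.13 (limma adjusted p = 0.0771). It was also lost with values scaled to equal upper quartiles (-0.11, limma adjusted p = 0.109) and with limma without its trend (adjusted p = 0.0747).

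DNAJB9 encodes ERdj4, a J-domain cochaperone that delivers clients to BiP and is a known target of XBP1. Its normalised read count was 644, 609 and 674 in the controls and 653, 576 and 752 after ELF4 siRNA. The lowest and the highest of the 6 values were both in the ELF4 siRNA group. The log2 fold change was 0.033, with a 95% interval of -0.14 to 0.21, the widest interval among the 10 genes. SDF2L1 encodes a protein found in complexes with BiP and its J-domain partners. It had 777, 752 and 746 normalised reads in the controls and 736, 783 and 717 after ELF4 siRNA, with overlap and a log2 fold change of -0.025 (95% interval -0.14 to 0.092).

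Of the disulfide isomerases, PDIA6 fell and PDIA4 did not pass. PDIA6 encodes P5, an isomerase that also acts on the luminal side of IRE1. The normalised read count of PDIA6 was 9575, 9320.4 and 9608 in the controls and 7877, 7947 and 8063 after ELF4 siRNA. Within each group PDIA6 varied little, with a coefficient of variation of 1.66% in the controls and 1.18% after ELF4 siRNA, and the groups did not overlap. The mean fell from 9501 ± 157 to 7963 ± 94.0, a log2 change of -0.25 (SE 0.036, limma adjusted p = 5.11e-05). PDIA4 encodes ERp72, an isomerase of the same compartment. It had 6949, 6839 and 6546 normalised reads in the controls and 6679.9, 6685 and 6893 after ELF4 siRNA, all 3 within the range of the controls. Its log2 fold change was -0.0051, with a 95% interval of -0.088 to 0.078.

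HERPUD1 encodes a membrane protein with a ubiquitin-like domain that belongs to the machinery of degradation at the endoplasmic reticulum. HERPUD1 had a normalised read count of 1946, 1809 and 1782 in the controls and 2931, 2829 and 3354 after ELF4 siRNA. The lowest ELF4 siRNA library lay above the highest control by a wide margin. The mean rose from 1846 ± 87.5 to 3038 ± 279, 1.65 times the control level, a log2 change of 0.72 (SE 0.060, limma adjusted p = 4.75e-07). This was the largest change among the 10 genes, and 7.75% of all genes tested had an absolute log2 fold change at least as large. With ERSE-II in its promoter HERPUD1 rose, whereas SDF2L1, which has the same element, did not pass.

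XBP1 encodes the transcription factor whose mRNA IRE1 splices. The XBP1 libraries held 3350.5, 3291 and 3296 normalised reads in the controls and 3208, 3218 and 3442 after ELF4 siRNA. As for HSPA5, replicate 3 of the ELF4 siRNA group lay above all controls and the other 2 lay below them. The log2 fold change was -0.011, with a 95% interval of -0.10 to 0.080. A total per gene does not separate the spliced from the unspliced form, so the activity of the factor was not measured here. The ratio of HERPUD1 to XBP1 was 0.541 to 0.581 in the controls and 0.879 to 0.974 after ELF4 siRNA. An exact permutation test of 3 libraries against 3, two-sided, gave p = 0.1 for each of the 5 called genes, the smallest that this design allows.

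**Figure D2:**
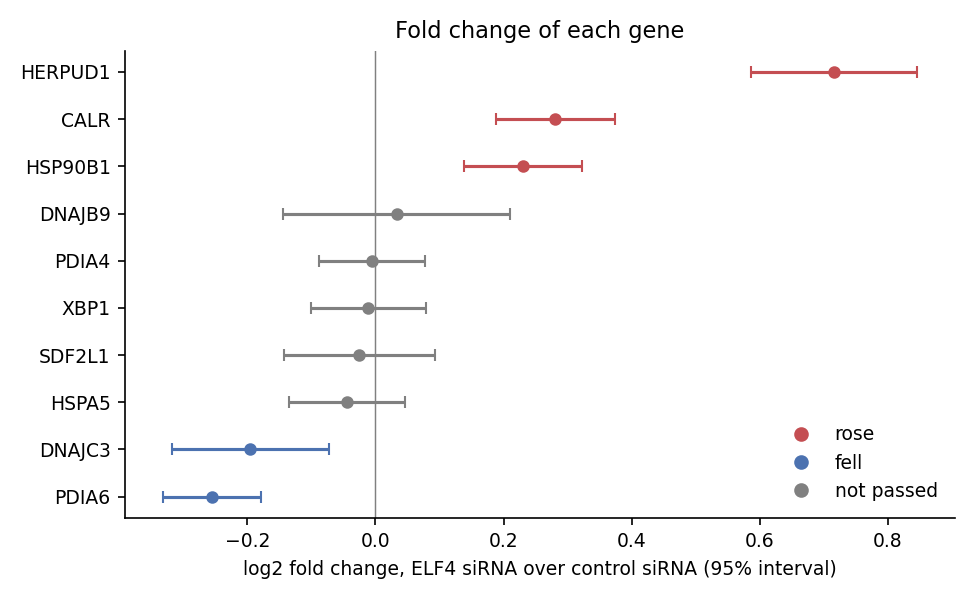
Log2 fold change between the groups, positive where ELF4 siRNA was higher (x axis), for each gene with its 95% interval from limma, coloured by whether it rose, fell or did not pass an adjusted p of 0.05. HERPUD1 lies at 0.72, CALR at 0.28 and HSP90B1 at 0.23, while PDIA6 lies at -0.25 and DNAJC3 at -0.20.

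Levels were ranked between genes per kilobase of the principal transcript in GENCODE 29. The ratios above and the shares of reads and of summed level below were not corrected for transcript length. In the controls the order of normalised read counts per kilobase ran from HSP90B1 (9988 ± 350) and CALR (9879.7 ± 490.3), whose libraries overlapped, to HSPA5 (5803 ± 67.8), PDIA6 (4064 ± 67.3), PDIA4 (2335 ± 71.7) and XBP1 (1791 ± 17.8). SDF2L1 (877 ± 19.3), HERPUD1 (627 ± 29.7), DNAJC3 (289 ± 22.9) and DNAJB9 (237 ± 12.1) followed. Apart from the pair HSP90B1 and CALR, no neighbours in this order overlapped in the controls. HSP90B1 stood 42.2 times above DNAJB9. After ELF4 siRNA HERPUD1 (1031 ± 94.6) stood above SDF2L1 (862 ± 39.5), without overlap, where it had stood below it in the controls. CALR and HSP90B1 also changed places, but their libraries overlapped in both groups.

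The 10 genes together took 0.347% to 0.357% of the reads of a control library and 0.372% to 0.407% of those of an ELF4 siRNA library, and HSPA5, HSP90B1 and CALR made up 73.9% to 76.9% of their summed level in each library. This sum therefore follows mainly these 3 genes.

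**Figure D3:**
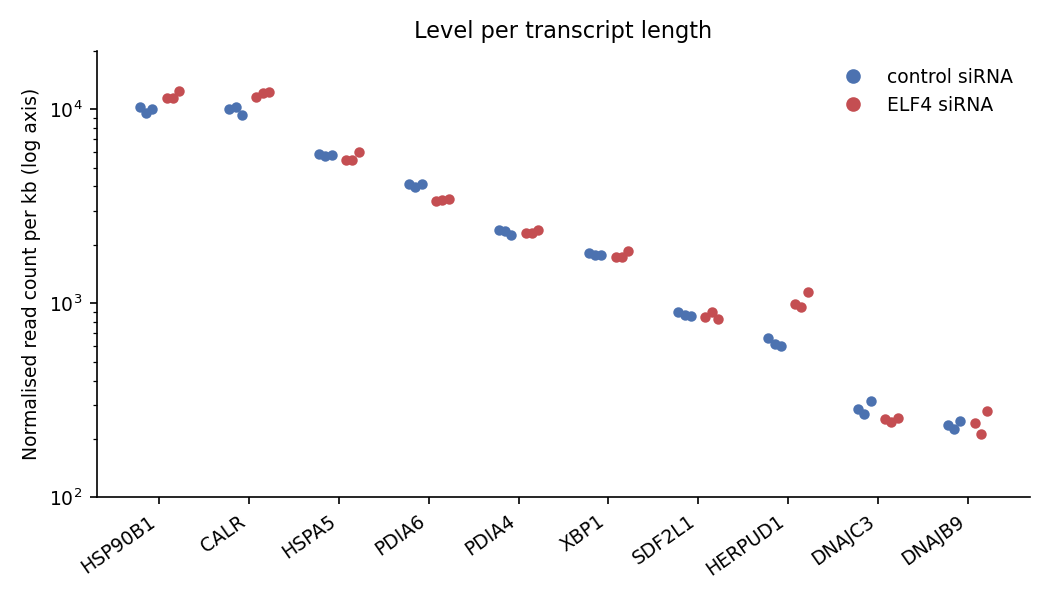
Normalised read count per kilobase of transcript (y axis, log scale) for each gene in the 3 control libraries (blue) and the 3 ELF4 siRNA libraries (red), in the order of the control means. The levels span 42.2 times from DNAJB9 to HSP90B1, and HERPUD1 after ELF4 siRNA lies above SDF2L1.

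Within the ELF4 siRNA group, replicate 3 held the highest value in 9 of the 10 genes and the lowest in SDF2L1. Over all genes tested, this library was the highest of its group in 33.5%. The trait is not particular to these genes. The same library was the highest in ERN1 and in every rising gene of the PERK and ATF4 list below, but not in ATF3 and PPP1R15B, which fell. The calls for HERPUD1, CALR, HSP90B1, PDIA6 and DNAJC3 were also made without ELF4 siRNA replicate 3, with HERPUD1 at 0.64, CALR at 0.26 and HSP90B1 at 0.19 on the log2 scale. XBP1 followed HSPA5 across the 6 libraries with a Pearson correlation of 0.959, which placed it at rank 6 of 13055 genes with a mean of at least 100. These 6 values share the group and the library, and the correlation is a description only. The 3 genes most like HSPA5 were C8orf48 (0.979), SLC7A11 (0.976), a cystine transporter gene, and a joined row that includes TMEM251 (0.964). Most like XBP1 were RP11-485G4.2 (0.997), RP11-334L9.1 (0.987) and COG3 (0.986), a gene of Golgi traffic. In SLC7A11, as in HSPA5 and XBP1, ELF4 siRNA replicate 3 (545) lay above all controls (396 to 469) and the other 2 (344 and 330.0) below them.

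The other genes of the pathway were read from 6 lists of 139 genes, of which 134 were tested. Among 25 tested folding factors beside the 10 genes, 4 rose, 8 fell and 13 missed the threshold, a called share of 48% beside 45.1% of all genes tested (median log2 fold change -0.017). FKBP10, a prolyl isomerase that assists collagen folding, rose from 9194 ± 216 to 13916 ± 331 (0.60, limma adjusted p = 2.95e-08). CRELD2 (0.28), SIL1, the nucleotide exchange factor of BiP (0.25), and CNPY2 (0.19), chosen after its value was seen, also rose. UGGT1, which senses the folding of glycoproteins, fell from 3426 ± 28.9 to 2442 ± 76.7 (-0.49), and FKBP14 (-0.45) and MESDC2 (-0.37) fell. Joined rows beside their own make the levels of CNPY2, MESDC2, PDIA5 and ATF6B uncertain. HYOU1 (0.051), DNAJB11 (0.054), CANX (-0.022) and MANF (0.022), which are well-known targets or partners in the stress response and were chosen after their values were seen, did not pass.

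Of 20 other disulfide isomerases and oxidoreductases tested, 5 rose, 7 fell and 8 missed the threshold, a called share of 60% beside 45.1% of all genes tested (median 0.027). Of the 13056 genes with a mean of at least 100, 3353 rose and 4424 fell, so 60% is near the share at that level. PDIA2, an isomerase known from pancreas, rose from 1449 ± 53.9 to 2899 ± 45.4 (1.00, limma adjusted p = 1.8e-09). PDIA3, the partner of calreticulin, rose from 15089.6 ± 491 to 17552 ± 479 (0.22), and QSOX2 rose (0.14), but the QSOX2 call was lost without control replicate 3 (limma adjusted p = 0.0522) and without the trend (limma adjusted p = 0.054). TXNDC5 (0.91, with means of 33.9 and 63.7 and reads shared with joined rows) and PRDX4 (0.12), chosen after their values were seen, complete the 5. SEP15 (-0.40), PDIA5 (-0.36) and TMX3 (-0.51) fell. The count of 5 became 3 without control replicate 1, control replicate 3 or ELF4 siRNA replicate 3.

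In degradation at the endoplasmic reticulum, 6 of 30 genes rose, 9 fell and 15 missed the threshold, a called share of 50%, where 45.1% of all genes tested were called (median -0.011). The erlins, which bring the inositol trisphosphate receptor to degradation, fell most. ERLIN1 fell from 996 ± 41.8 to 391 ± 15.8 (-1.35, limma adjusted p = 1.66e-09), although a row that joins it with CHUK makes its level uncertain, and ERLIN2 fell from 1955 ± 92.8 to 1050.1 ± 20.4 (-0.90). UFD1L (-0.40), a cofactor of the VCP segregase, fell, while HERPUD2 (0.38), the paralog of HERPUD1, and MAN1B1 (0.25) rose. VCP itself rose (0.12, limma adjusted p = 0.0158) and NPLOC4, another cofactor of it, did not pass (-0.0099), both chosen after their values were seen.

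Among the 18 sensors and regulators, 6 rose, 8 fell and 4 did not pass, so that 77.8% were called, against 45.1% of all genes tested (median -0.053). Among the 13056 genes with a mean of at least 100, 3353 rose and 4424 fell, so 45.1% is a low reference here. The rises include CREB3L1, chosen after its values were seen, with means of 6.29 and 14.1. It met the filter on low values only through the ELF4 siRNA group. Without the filter, or with only genes of a mean of at least 100, 5 genes of the list rose. The sensors differed in direction. ERN1, which encodes IRE1, had 148, 152 and 142 normalised reads in the controls and 242, 207 and 295 after ELF4 siRNA, and rose by 0.73 on the log2 scale (SE 0.11, limma adjusted p = 0.000104). EIF2AK3, which encodes PERK, fell from 453 ± 12.6 to 367 ± 10.1 (-0.30, limma adjusted p = 0.00109), and ATF6 fell from 2765 ± 125 to 2383 ± 33.8 (-0.21, limma adjusted p = 0.00134). ATF6B (0.26) and DDRGK1 (0.22) rose. NFYA (-0.44), a subunit of the factor that binds CCAAT boxes, RTCB (-0.37), the ligase that joins the cut XBP1 mRNA, and CREB3L2 (-0.32) fell. Of the other subunits of that factor, chosen after their values were seen, NFYB rose (0.15, limma adjusted p = 0.0409) and NFYC did not pass (-0.058).

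The arm downstream of PERK and ATF4 held mostly rises. Of 12 tested genes, 10 rose and 2 fell (median log2 fold change 0.55), where 20.7% of all genes tested rose. In each of the 10, ELF4 siRNA replicate 3 was the highest of its group, and without this library 9 genes rose and 2 fell. CHAC1 (1.55), an enzyme that degrades glutathione, DDIT3 (1.02), which encodes CHOP, and DDIT4 (0.79), an inhibitor of mTOR signalling, rose. DDIT3 had 233, 254 and 225 normalised reads in the controls and 439.5, 464 and 553 after ELF4 siRNA, without overlap. ATF4 itself rose from 10329 ± 379 to 11348 ± 327 (0.14, limma adjusted p = 0.0129), a call lost without control replicate 1 (limma adjusted p = 0.0665), without control replicate 3 (limma adjusted p = 0.0622) or without the trend (limma adjusted p = 0.0863). ATF3 (-0.64) and PPP1R15B (-0.35), which encodes a subunit of the phosphatase that acts on eIF2alpha, fell. Its counterpart PPP1R15A, chosen after its value was seen, rose (0.49, limma adjusted p = 0.000172). A list's count here stands beside the background share and was not tested against other genes, and this list was written with earlier results on CHAC1 in these data known.

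In translocation, glycosylation and retrieval, 5 of 29 genes rose, 8 fell and 16 missed the threshold, and the called share of 44.8% is near the 45.1% of all genes tested (median -0.049). That share is smaller than the one among the 13056 genes with a mean of at least 100, where 3353 rose and 4424 fell. SRPR, a subunit of the receptor of the signal recognition particle, fell from 5312 ± 103 to 2954 ± 103 (-0.85, limma adjusted p = 3.46e-09). SRPRB, the other subunit, chosen after its value was seen, did not pass (0.034). SPCS3 (-0.47) and SSR2 (-0.19) also fell. The SSR2 call was lost with equal upper quartiles (-0.10, limma adjusted p = 0.0867). KDELR1, a receptor that returns proteins such as BiP and calreticulin from the Golgi, rose from 3768 ± 173 to 4868 ± 99.3 (0.37, limma adjusted p = 9.5e-06). The other receptors of this family, chosen after their values were seen, did not rise. KDELR2 fell (-0.14, limma adjusted p = 0.0405), with overlap between the groups and a joined row beside its own, and KDELR3 did not pass (-0.15). MOGS (0.28) and SSR4 (0.19) rose. PRKCSH (0.19) and SEC11A (0.11), chosen after their values were seen, complete the 5 rises. The count of 8 falls became 5 without control replicate 3 or ELF4 siRNA replicate 2.

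**Figure D4:**
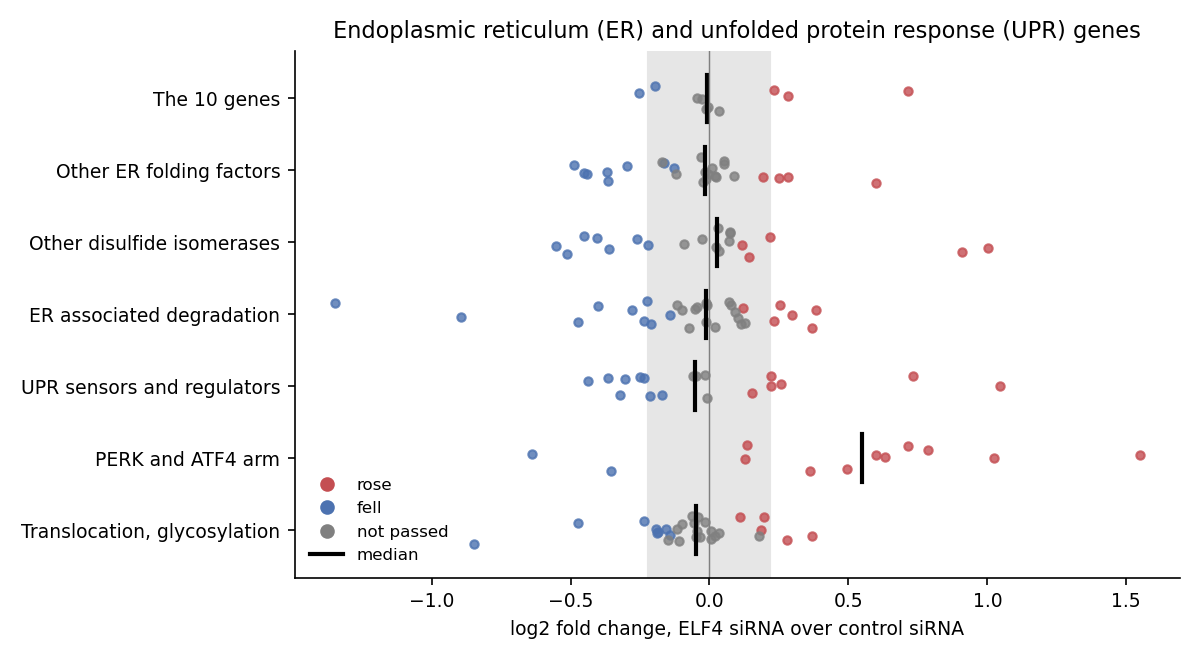
Log2 fold change between the groups, positive where ELF4 siRNA was higher (x axis), for each tested gene of the 10 genes and of the 6 lists, coloured by whether it rose, fell or did not pass, with a black bar at each median and a grey band between the quartiles of all genes tested (-0.22 and 0.22). The medians lie between -0.053 and 0.027 except for the PERK and ATF4 arm at 0.55.

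Genes that carry ERSE or ERSE-II in a promoter, other than the 10 genes, were also read as a group. Of 21 tested, 3 rose, 8 fell and 10 missed the threshold, a called share of 52.4%, where 52.7% of the 10281 tested genes with a promoter in the table were called. The 3 that rose were TMEM120A (0.43), CRELD2 (0.28) and EIF2A (0.25), and the largest fall was in FICD (-0.71), which encodes the enzyme that modifies BiP and had means of 98.2 and 59.2. These names were chosen after their values were seen. With all genes scaled to equal upper quartiles, 5939 genes rose and 3597 fell, against 4217 and 4956 as scaled by the authors, and under that scaling the 10 genes had 3 rises and 1 fall.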

How the data were processed

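The authors' deposited table holds a signal, normalised read counts per gene, for 6 libraries. The submitters' processing notes name hg19 as the build and, as tools, featureCounts, TopHat and DESeq2. Annotation, strand setting and tool versions were not given in the sources used here. Each deposited value was a whole multiple of 1 step per library to within 0.001 (100% of values), which gave back the whole reads. Columns were assigned to samples by their labels. Genes from overlapping loci are joined in 2148 rows, and antisense partners cannot be told apart.

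Because the values were normalised, limma with a trend was the main test (pseudocount 1), and fold changes are on the log2(value + 1) scale. Named were the 10 genes, ELF4, up to 3 rises and 3 falls per list by smallest adjusted p, where the higher group had a mean of 100 or more, the sensors, ATF4 and DDIT3, and the 3 genes most like HSPA5 and XBP1. The genes and lists were chosen with earlier results of these data known. Alternatives were other pseudocounts, filters and scalings, no trend, the count tests edgeR and DESeq2 on whole reads, leaving out each library, and a replicate block. On simulated data for this comparison (20324 genes), limma recovered 69.1% of changes of 0.5 and 92.9% of changes of 1 on the log2 scale, and 7 of 166 calls were unchanged genes. In the simulation few genes were changed, and all genes had the same spread beyond sampling noise. In the data 45.1% of genes were called, so these shares do not carry over to it. The depth was 23148635 to 38097986 reads per library. Replicates differed by more than sampling noise (chi-square per degree of freedom 2.05 to 5.78). Promoters came from RefSeq (GRCh38.p14) and transcript lengths from GENCODE 29, on another build than hg19. Software was Python 3.11.15 (pandas 2.3.3, matplotlib 3.10.9, scipy 1.17.1, numpy 2.4.6) and R 4.3.3 (DESeq2 1.42.0, limma 3.58.1, edgeR 4.0.16).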

Additional observations from a re-analysis of the deposited data

How the results depend on the processing

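Of 170 values of the 10 genes under the alternatives, 167 kept their side of the threshold and the direction of every call, and 3 of DNAJC3 no longer passed. DNAJC3 lost its call with equal upper quartiles (-0.11, adjusted p = 0.109) and without the trend (-0.20, adjusted p = 0.0747), and ranged from -0.25 to -0.13 when 1 library was left out, with no call without control replicate 3 (adjusted p = 0.0771). The count of falls among the 10 genes was therefore 1 rather than 2 in those settings (1 to 2 when 1 library was left out), and the count of rises was 3 in all. HERPUD1 ranged from 0.64 to 0.80. With equal upper quartiles, 7 folding factors, 8 isomerases and 11 degradation genes rose and 2 translocation genes fell. That scaling shifted all genes upward together, with a median log2 fold change of all genes tested of 0.082, against -0.0042 as scaled by the authors. Without the trend, 2 isomerases and 3 translocation genes rose and 4 translocation genes fell. Leaving out 1 library gave 3 to 5 rising isomerases and 5 to 11 falling translocation genes. Beyond the shift under equal upper quartiles, the cause of these differences was not tested. Under the replicate block the calls were 4564 up and 5346 down, and the 10 genes had 3 rises and 2 falls. Same-numbered deviations correlated at 0.029, 0.075 and 0.041, so the numbers are not taken as pairs. Each of the 6 libraries was nonetheless closest to its own number in the other group, a hint that comes from the data, not the design. Depth does not limit the 10 genes, which had at least 513 reads per library, but the remaining ELF4 level comes from only 3 to 5 reads in a library.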
